A study of Mus musculus with 16 samples.

Results

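The miRNAs miR-140 and miR-455, each with the arm that the array marks by a star, were followed in mouse sciatic nerves that lack Dicer in Schwann cells and in controls. All probes whose array name is mmu-miR-140, mmu-miR-140*, mmu-miR-455 or mmu-miR-455* were taken, which gave 4 of the 650 miRNA names on the array and 8 of its 1857 probes. They were chosen by their signals in earlier results of these data, namely the differences between the genotypes at P4 and between the ages in controls. Their values in those comparisons are therefore given as a description without a test, and p-values are given for the genotypes at E17 and for age in mutants. The former shares the E17 control arrays, and the latter the P4 mutant arrays, with a comparison that chose the miRNAs. These tests are thus not independent of the choice.

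Each of the 16 arrays held the RNA of sciatic nerve from 1 mouse, with 4 mice in each of 4 groups. The groups were E17 controls and E17 mutants (embryonic day 17), and P4 controls and P4 mutants (postnatal day 4). Mutants were Dicer fl/fl Dhh-Cre+ and controls Dicer wt/fl Dhh-Cre+, so that all 16 mice carried the Cre transgene and at least one floxed Dicer1 allele (strain Dicer1tm1Bdh/J in the labels). The Dhh promoter directs Cre to Schwann cells. The authors expected Dicer loss in these cells only and named incomplete recombination as a possibility. A nerve-wide signal would thus hold RNA of cells with and without Dicer. In whole nerve, fewer cells of a type and less RNA per cell cannot be told apart.

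Dicer is the enzyme that cuts miRNA hairpins into a duplex, from which either arm can be loaded into an Argonaute protein, so that both arms of a hairpin depend on it. miR-140 and miR-455 are best known from cartilage, where they accompany the transcription factor Sox9 and are made from introns of genes that chondrocytes use. In the RefSeq gene table, Mir140 lies within Wwp2, which encodes a ubiquitin ligase, and Mir455 within Col27a1, which encodes a fibrillar collagen. The nearest other miRNA gene in that table lies 455138 bases from Mir140 and 4815753 bases from Mir455.

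The mature sequences that the reference holds are shown because their seeds, the bases that pair with target mRNAs, set which targets an arm can address. They are from RefSeq on GRCm38.p6, are written 5′ to 3′ and carry bases 2 to 8, the seed, in capitals.
mmu-miR-140-3p, chr8:107551288-107551308, plus strand: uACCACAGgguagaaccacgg
mmu-miR-455-5p, chr4:63256867-63256888, plus strand: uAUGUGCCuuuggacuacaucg
mmu-miR-455-3p, chr4:63256904-63256924, plus strand: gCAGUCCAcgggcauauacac
These 3 seeds differ from each other. Among the 1679 mature mouse sequences in the table, the seed of miR-140-3p was shared with miR-497b, that of miR-455-5p with miR-5129-3p, and that of miR-455-3p with no other. The array names are older than the arm suffixes, and the scanner files give no probe sequence. By the older naming, miR-140* is miR-140-3p and miR-140 is miR-140-5p. Which arm of miR-455 the array calls miR-455 was not settled here, and the array's names are kept below. The hairpin of Mir140, chr8:107551244-107551313 on the plus strand, is shown with the miR-140-3p arm in capitals, since both of its arms were measured.
Mir140 hairpin: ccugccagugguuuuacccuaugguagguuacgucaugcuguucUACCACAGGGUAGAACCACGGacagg

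Signals are given as the log2 of the median spot signal after quantile normalization across the 16 arrays, averaged over the 10 spots of a probe. A level on this scale belongs to its probe, so levels are compared between groups and never between probes. Each miRNA had 2 probes and is described first by the brighter one. The brighter probes of miR-140, miR-140* and miR-455 were well above background on 16 of 16 arrays. The dimmer probe of miR-140 was so on 16 arrays, that of miR-140* on 8 and that of miR-455 on 9. For miR-455*, the brighter probe was well above background on 1 array, a P4 control, and the dimmer probe on 0. Feature Extraction, the scanner software, detected miR-140, miR-140* and miR-455 on 16 arrays each and miR-455* on 4. Those 4 were 3 P4 controls and 1 E17 control. All 4 miRNAs were counted as expressed, for which a detected share of 0.5 of the arrays in any 1 group sufficed, and miR-455* met this only through the P4 controls, the group in which its signal was highest. A probe was called if its limma adjusted p did not exceed 0.05 and its log2 difference reached 0.5 in either direction. A miRNA was called through any called probe, provided that no probe of it was called in the opposite direction.

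Before normalization, summed miRNA signal differed between the groups. At E17 it lay between 36495 and 60374 scanner units in controls and between 39097 and 50827 in mutants. At P4 it lay between 122860 and 154076 in controls and between 56841 and 83630 in mutants. Local background had a median between 20 and 33 on 14 arrays, and replicates 3 and 4 of the E17 mutants stood apart with 55 and 39. Both genotypes of an age shared a slide, with the E17 arrays on slide 2 and the P4 arrays on slide 1, and the effects of age and slide cannot be told apart. Of the markers of Schwann cells and myelinating glia, miR-219 was detected on no array, and miR-338-3p, miR-338-5p, miR-204 and miR-138 were expressed.

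In controls, miR-140 was higher at P4 than at E17. Its brighter probe read 7.24, 7.26, 7.06 and 7.02 on the E17 control arrays and 8.01, 7.71, 7.86 and 7.92 on the P4 control arrays. The lowest P4 value lay above the highest E17 value. The means were 7.14 ± 0.12 and 7.88 ± 0.13 (SD, n = 4), a log2 difference of 0.73 (standard error 0.0826), and the dimmer probe differed by 0.64 (standard error 0.0510).

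In P4 mutants, miR-140 did not stand at the level of P4 controls. Its brighter probe read 7.00, 7.02, 6.94 and 6.90 on the mutant arrays, all below the lowest P4 control at 7.71. The mean was 6.97 ± 0.05 (SD, n = 4), with a log2 difference of -0.91 from P4 controls (standard error 0.0826), or 1.88-fold, and the dimmer probe differed by -0.77 (standard error 0.0510), or 1.70-fold. The P4 mutants were the lowest and the P4 controls the highest of the 4 groups on both probes.

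**Figure D1:**
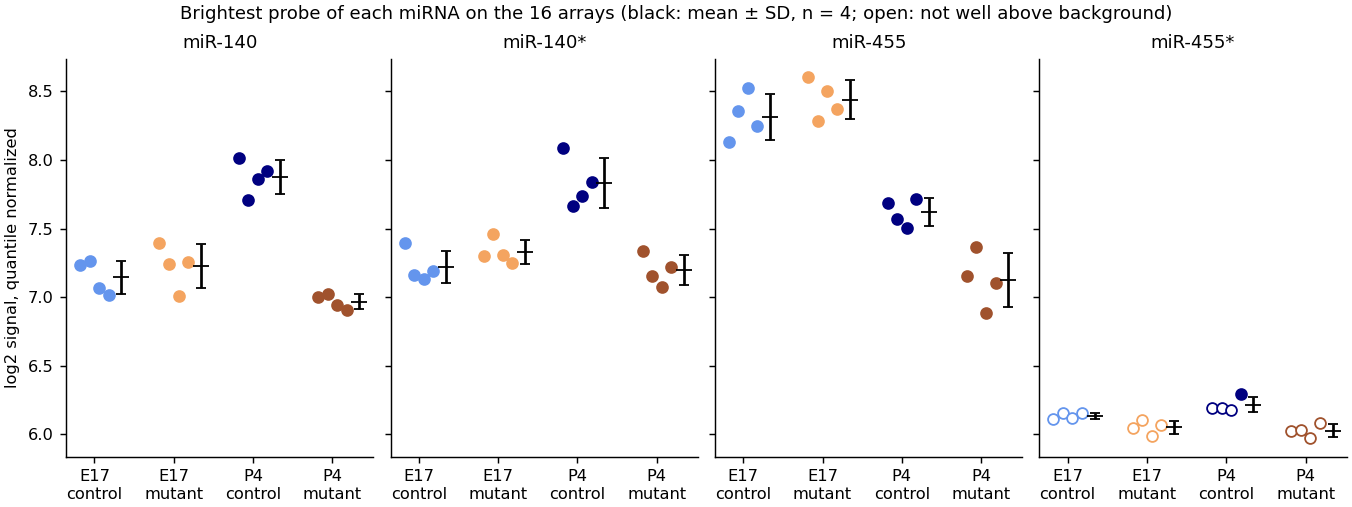
Log2 signal after quantile normalization (vertical axis) of the brighter probe of miR-140, miR-140*, miR-455 and miR-455* on each of 16 arrays, by group (horizontal axis). Points are arrays, open where the probe was not well above background, and black marks are the mean ± SD of 4. The P4 controls lie between 7.71 and 8.01 for miR-140 and above every other group, whereas for miR-455 both E17 groups lie highest.

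The other arm of the same hairpin, miR-140*, had the same order of the P4 groups. Its brighter probe read 7.39, 7.16, 7.14 and 7.19 on E17 control arrays, 8.09, 7.67, 7.74 and 7.84 on P4 control arrays, and 7.34, 7.15, 7.08 and 7.22 on P4 mutant arrays. The P4 controls again lay above all other arrays, and the P4 mutants overlapped the E17 controls. The log2 difference with age in controls was 0.61 and that between the P4 genotypes was -0.64 (standard error 0.0879 for each). On the dimmer probe they were 0.40 and -0.39 (standard error 0.0412 for each), under the limit of 0.5.

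For miR-455 the order was another one, with the highest signals before birth. The brighter probe read 8.13, 8.35, 8.53 and 8.25 on E17 control arrays and 7.69, 7.57, 7.50 and 7.72 on P4 control arrays, without overlap. The log2 difference with age in controls was -0.69 (standard error 0.104). On P4 mutant arrays it read 7.15, 7.37, 6.89 and 7.10, each below the lowest P4 control. The difference between the P4 genotypes was -0.49 (standard error 0.104), just under the limit of 0.5 and thus not called. It passed the limit without replicate 2 (-0.51) or 3 (-0.53) of the P4 controls or replicate 1 (-0.50) or 2 (-0.57) of the P4 mutants. The dimmer probe did not rise well above background in P4 mutants. Against P4 controls, of which 3 arrays measured it, it was lower by at least 1.01-fold.

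The signal of miR-455* lay near background. Its brighter probe read 6.19, 6.20, 6.18 and 6.30 on P4 control arrays and 6.02, 6.03, 5.97 and 6.08 on P4 mutant arrays. The array at 6.30 was the one well above background, and no fold is given.

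Of the 4 miRNAs, 2 were called higher and 1 lower with age in controls, where 8.19% of the 281 expressed miRNAs were called higher and 12.1% lower. Between the P4 genotypes 2 were called lower, miR-140 and miR-140*, against 10.7% of all. These comparisons drew attention to the miRNAs, and nothing is read from the counts. The groups did not overlap on 8 of the 8 probes between the P4 genotypes, against 39.1% of the 681 expressed probes, and on 7 of them with age in controls, against 37.6%. Nothing is read from these counts either, for the same reason. They include miR-455*, which lay near background. On its dimmer probe the lowest P4 control stood at 5.951 and the highest P4 mutant at 5.946.

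At E17 no difference between the genotypes was called for miR-140, miR-140* or miR-455. For miR-140, the brighter probe read 7.40, 7.24, 7.01 and 7.25 on E17 mutant arrays, a range that includes all 4 controls. The difference was 0.08 with a 95% interval from -0.10 to 0.26 (limma adjusted p = 0.595). For miR-140* the mutant arrays read 7.30, 7.46, 7.31 and 7.25, within or just above the range of the controls. The difference was 0.11 with an interval from -0.08 to 0.30 (limma adjusted p = 0.470).

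miR-455 read 8.60, 8.28, 8.50 and 8.37 on E17 mutant arrays, overlapping the controls. The difference was 0.13 with an interval from -0.10 to 0.35 (limma adjusted p = 0.482). On the dimmer probes of these 3 miRNAs the differences were between 0.02 and 0.06 (limma adjusted p from 0.449 to 0.810). Of all expressed miRNAs, 2.49% were called lower and 3.56% higher at E17, against 0 of these 3, and the genotypes overlapped on both probes of each, where 20.7% of expressed probes did not. miR-455* was well above background on no E17 array and is given no test. Its means were 6.14 ± 0.02 in controls and 6.05 ± 0.05 in mutants (SD, n = 4).

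With age in mutants, miR-455 fell. Its brighter probe went from a mean of 8.44 ± 0.14 at E17 to 7.13 ± 0.20 at P4 (SD, n = 4), lower on 4 of 4 P4 arrays than on any E17 array, a separation found on 25.7% of expressed probes in this comparison. The log2 difference was -1.31 (standard error 0.104, 95% interval -1.54 to -1.09, limma adjusted p = 2.60e-06), or 2.49-fold. The dimmer probe had a limma adjusted p of 8.95e-06, and, with its P4 mutant signal only a bound, it was at least 1.16-fold lower. This comparison shares the 4 P4 mutant arrays with that between the P4 genotypes. The change with age in controls was -0.69 on the same probe, and the difference between them is the interaction given below.

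Neither arm of miR-140 was called with age in mutants. The brighter probe of miR-140 differed by -0.26 (standard error 0.0826, limma adjusted p = 0.0315) and the dimmer by -0.18 (standard error 0.0510, limma adjusted p = 0.0167), both under the limit of 0.5. This depended on the scaling. The brighter probe was called lower with 75th percentile scaling (-0.57, limma adjusted p = 0.0135), with background-subtracted signal (-0.52, limma adjusted p = 0.0208) and with positive-control scaling (-1.23, limma adjusted p = 3.42e-05), where the median over all expressed probes was itself -1.19. Without normalization it stood at -0.02 (limma adjusted p = 0.996). The arrays of the 2 ages overlapped on the brighter probe and did not on the dimmer one. With each array left out in turn, the adjusted p of the brighter probe ranged from 0.00657 to 0.102. miR-140* differed by -0.13 (standard error 0.0879, 95% interval -0.32 to 0.05, limma adjusted p = 0.309). In controls the same probes differed by 0.73, 0.64 and 0.61 in the other direction. Of miR-140, miR-140* and miR-455, 1 was called lower with age in mutants, where 7.47% of expressed miRNAs were called lower, and 0 were called higher, against 3.2%.

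**Figure D2:**
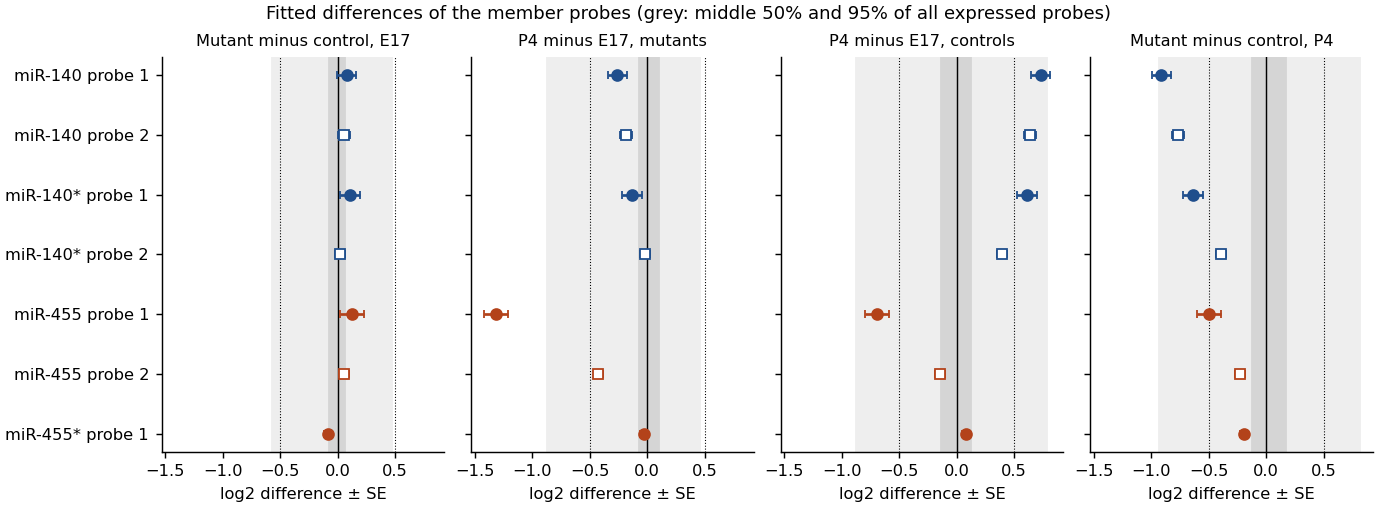
Log2 differences with standard error (horizontal axis) of 7 member probes (vertical axis) in 4 comparisons of 4 arrays against 4. Filled circles are the brighter and open squares the dimmer probe of a miRNA, dotted lines mark the limit of 0.5, and grey bands hold the middle 50% and 95% of the 681 expressed probes. All 7 probes lie left of 0 between the P4 genotypes, down to -0.91, whereas at E17 they lie between -0.08 and 0.13.

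The genotype difference at P4 minus that at E17 was -0.99 (standard error 0.117) for the brighter and -0.82 (standard error 0.0722) for the dimmer probe of miR-140. For the brighter probes of miR-140* and miR-455 it was -0.75 (standard error 0.124) and -0.62 (standard error 0.147). These values contain the P4 comparison and are a description.

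The gene signal that Feature Extraction computes after background subtraction, which sums a miRNA's probes and is not normalized between arrays, also put the P4 controls highest for both arms of miR-140. miR-140 read 72.4, 65.7, 40.4 and 78.6 scanner units on E17 control arrays, 325, 308, 339 and 278 on P4 control arrays, and 61.8, 74.8, 59.9 and 58.0 on P4 mutant arrays. The P4 mutants lay within the range of the E17 arrays. The mean in P4 mutants was 0.203 of that in P4 controls for miR-140 and 0.281 for miR-140*. Between E17 and P4 in mutants the ratio was 0.984 for miR-140 and 1.18 for miR-140*. The P4 mutant mean of miR-140*, 66.0 units, thus lay above the E17 means of 54.6 in controls and 55.8 in mutants, where the normalized probe signal differed by -0.13.

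For miR-455 the direction of the change with age in controls depended on this scale. Its gene signal was 136 ± 21.8 units in E17 controls and 176 ± 13.3 in P4 controls (SD, n = 4), a ratio of 1.29. As a share of the summed signal of each array it was 0.279% in E17 controls and 0.131% in P4 controls, a ratio of 0.469. In P4 mutants it was lower than in P4 controls on both scales, with 56.3 ± 17.0 units (SD, n = 4) and 0.0799%. Its fall with age in mutants also held on both, with ratios of 0.424 for the signal and 0.260 for the share. The share of miR-140 was 0.129% in controls and 0.149% in mutants at E17, and 0.234% in controls and 0.0925% in mutants at P4. The gene signal of miR-455* ranged from 13.0 to 17.9 units over P4 controls, from 2.32 to 3.81 over P4 mutants and from 1.51 to 10.7 over the E17 arrays.

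**Figure D3:**
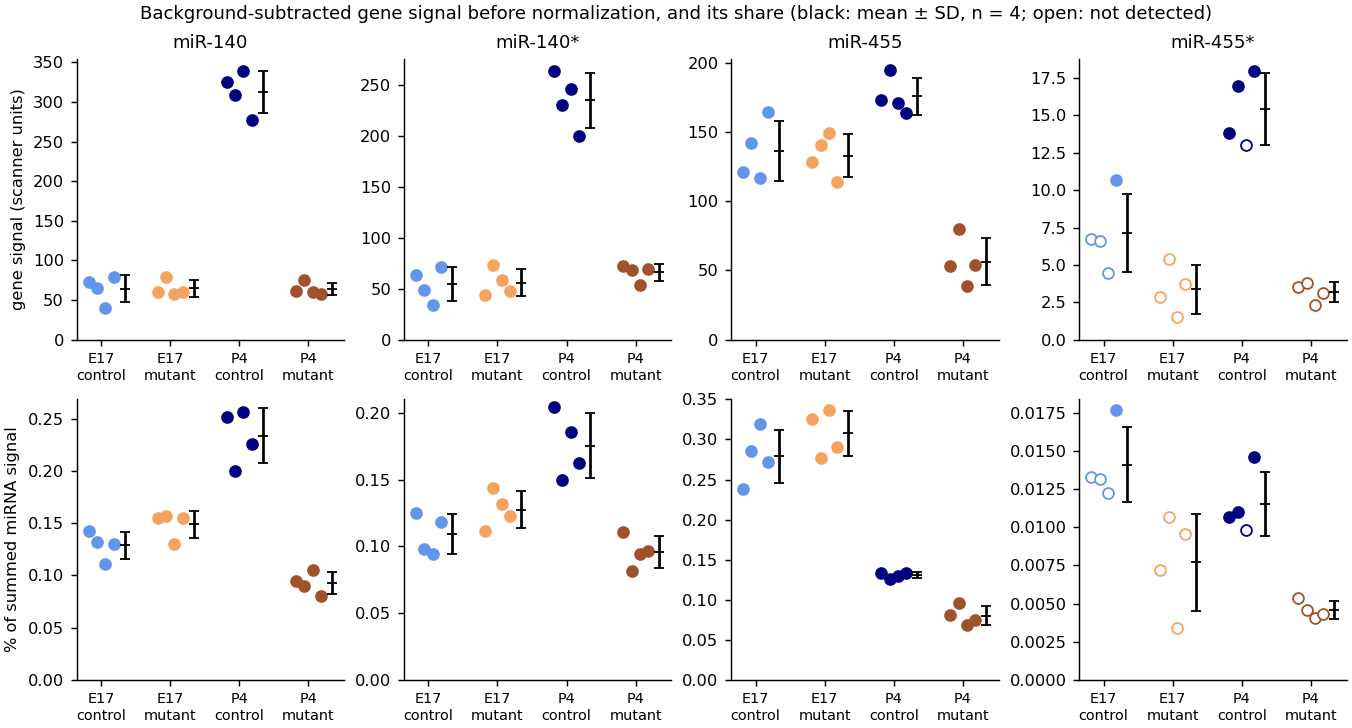
Background-subtracted gene signal in scanner units before normalization (upper row) and the same as percent of the summed miRNA signal of the array (lower row), for the 4 miRNAs on 16 arrays, with black marks for the mean ± SD of 4 and open points where a miRNA was not detected. For miR-455 the P4 controls lie above most E17 controls in units, with means of 176 and 136, and below all of them in share.

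Other ways of making the signals moved the sizes. Between the P4 genotypes, the brighter probe of miR-140 differed by between -1.59 without normalization and -0.66 with normexp background correction, that of miR-140* by between -1.33 and -0.46, and that of miR-455 by between -1.13 and -0.36, under 7 signals and scalings. With age in controls, miR-140 differed by 1.75 without normalization and by 0.24 with scaling to the positive-control probes, where its dimmer probe stood at -0.06 and that of miR-140* at -0.54. The median over all expressed probes moved to 0.42 and -1.08 there, and miR-140 lay above it. Positive-control scaling only shifts the unnormalized signal of each array by a constant. The distance from the median is therefore the same under both by construction. miR-455 differed with age in controls by 0.37 without normalization, also under a median of 0.42, and by between -1.13 and -0.52 under the other 6. The -1.13 came with positive-control scaling, under a median of -1.08, so that miR-455 stood close to the median there. This is the same result as without normalization and not a further one.

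**Figure D4:**
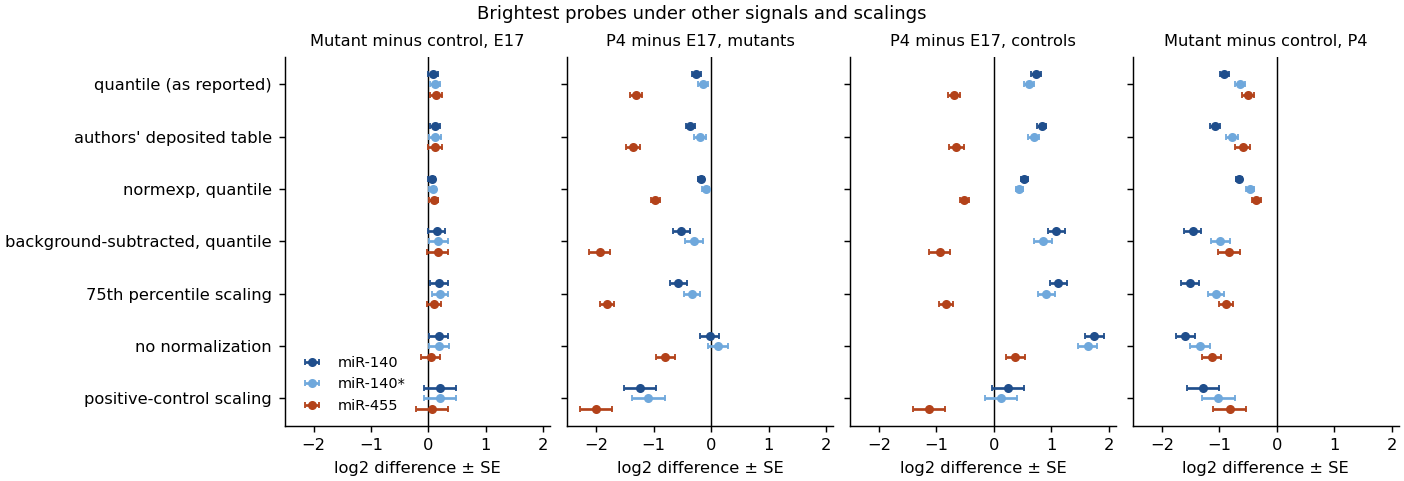
Log2 differences with standard error (horizontal axis) of the brighter probes of miR-140, miR-140* and miR-455 in 4 comparisons under 7 signals and scalings (vertical axis). Between the P4 genotypes every point lies left of 0, from -1.59 to -0.36, and with age in controls miR-455 lies right of 0 without normalization, at 0.37, and left of it elsewhere.

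The arms of the Mir140 hairpin were set beside the other hairpins with both arms expressed, 41 pairs in all. Between the P4 genotypes, the effects of miR-140 and miR-140* differed by 0.27 in size, against a median of 0.31 over the pairs. Over the pairs it ranged from 0.02 (miR-409-5p and miR-409-3p) to 2.25 (miR-338-5p and miR-338-3p). Both arms were called lower in 4 pairs, of miR-140, miR-30a, miR-338 and miR-9, and both higher in 1, that of miR-199a. With age in controls both arms were called higher in 2 pairs, those of miR-140 and miR-30a. At E17, a comparison that shares the E17 control arrays with that of age in controls, the arms of miR-140 differed by 0.03 in size. The median was 0.16, and this was place 5 counted from the smallest. In mutants with age they differed by 0.12 against 0.20. Among pairs, the miR-455 arms are given no comparison, since miR-455* was near background.

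The miRNAs nearest to a member were those with the smallest root-mean-square difference over the 16 arrays, each profile centred on its own mean, among 277 expressed miRNAs. Nearest to miR-140 were miR-30a*, miR-30c, miR-338-5p, miR-30a and miR-340-3p, at 0.109 to 0.170 log2 units against a median of 0.419 over all. miR-140* was at 0.150 from miR-140, and 1 of the other miRNAs was nearer. Nearest to miR-140* were miR-138*, miR-338-5p, miR-340-5p, miR-30b and miR-24-1*, at 0.114 to 0.136 against a median of 0.350. miR-338-5p, from the hairpin of a miRNA known from myelinating glia, was thus on both lists, and its log2 difference between the P4 genotypes was -0.60. It was detected on only 5 of the 16 arrays. The other arm, miR-338-3p, was detected on 16, was on neither list and differed by -2.85. Nearest to miR-455 were miR-15b, miR-92a, miR-19b, miR-9 and miR-25, at 0.214 to 0.340 against a median of 0.592. Of these 5, miR-92a, miR-19b and miR-25 come from a family of related clusters known for its part in proliferating cells. Between miR-140 and miR-455 the difference was 0.657, place 245 of 277 from the nearest when counted from miR-140 and place 199 when counted from miR-455.

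**Figure D5:**
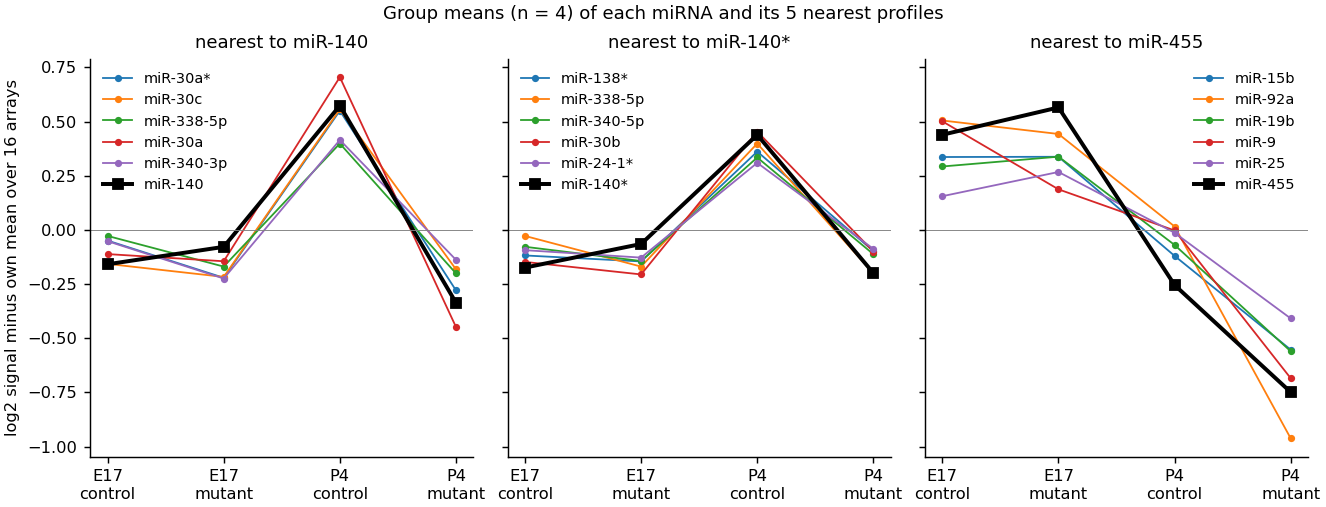
Group means of 4 arrays, as log2 signal minus the miRNA's own mean over 16 arrays (vertical axis), by group (horizontal axis), for miR-140, miR-140* and miR-455 in black and their 5 nearest profiles in colour. The nearest to miR-140 peak in P4 controls, whereas those of miR-455 are highest at E17 and lowest in P4 mutants.

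In mutants, 5 of the 5 miRNAs nearest to miR-455 were called lower with age, with log2 differences between -1.41 (miR-92a) and -0.68 (miR-25). The measure of likeness included all mutant arrays of that comparison, in which the brighter probe of miR-455 itself differed by -1.31. Neighbours chosen in this way had to change much as miR-455 did, so nothing is read from this count. Of the 5 nearest to miR-140, 0 were called with age in mutants, their differences being between -0.30 (miR-30a) and 0.09 (miR-340-3p). Nothing is read from this count either, for the same reason.

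A list of 24 other miRNAs known from chondrocytes or skeletal growth was drawn up by knowledge, of which 23 were on the array and 20 expressed. Earlier results of these data were known when it was chosen, so its counts and medians are a description. Between the P4 genotypes, 5 of the 20 were called higher and 2 lower, against 10.3% and 10.7% of all expressed miRNAs. The median log2 difference was 0.31 against 0.06 over all. The largest differences among those called higher were 1.14 for miR-199a-5p, 1.09 for miR-214 and 0.78 for miR-199a-3p. miR-27b and miR-92a were lower with -1.45 and -0.98. At E17, 3 were called higher and 1 lower, against 3.56% and 2.49% of all, with a median of 0.13 against -0.00. With age in controls 2 were called higher and 5 lower, against 8.19% and 12.1% of all. With age in mutants 0 were called higher and 2 lower, against 3.2% and 7.47%. miR-675-5p, miR-145 and miR-222 were detected on no array. Of the 5 called higher at P4, miR-199a-3p, miR-199a-5p and miR-214 are also on the list of fibroblast and smooth muscle markers given below. They were the 3 called higher at E17, miR-199a-3p and miR-214 only through another probe than their brightest.

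The summed level of the Schwann cell and myelinating glia markers differed between the groups. Of these 5 markers 4 were expressed, and their share of summed signal at E17 was 1.41% to 2.22% in controls and 1.21% to 1.35% in mutants. At P4 it was 3.40% to 4.60% in controls and 0.411% to 0.632% in mutants. Between the P4 genotypes 4 of the 4 were called lower, against 10.7% of all. Nothing is read from this count, since the list was chosen with earlier results of these data known. The paper had selected miR-338-3p, miR-204 and miR-138 from these data, in part for being lower in P4 mutants. In addition, miR-338-5p was detected on only 5 arrays and miR-138 on 8. At E17 the share was lower in mutants than in controls, though 0 of the 4 were called there, and the mean share of miR-140 was 0.129% in controls and 0.149% in mutants. With age in mutants the summed signal of these markers went from between 477 and 676 units to between 234 and 467. The ratio for miR-140 was 0.984 by gene signal and 0.620 by share. Of the 4 markers, miR-338-3p (-1.41) and miR-204 (-0.96) were called lower with age in mutants. The others, miR-338-5p (-0.03) and miR-138 (0.14), were not called, and with their low detection nothing is read from this. The fibroblast and smooth muscle markers, of which 5 of 6 were expressed and miR-145 was detected on no array, made up 4.53% to 7.58% in controls and 8.83% to 9.81% in mutants at E17, and 4.21% to 4.89% and 9.42% to 11.98% at P4. Of the 5, 4 were called higher in mutants at E17 and 4 at P4, against 3.56% and 10.3% of all. At E17, miR-199a-3p, miR-214 and miR-199b* were called only through another probe than their brightest. The limma adjusted p of their brightest probes was 0.176, 0.142 and 0.0932. miR-199a-3p and miR-199a-5p are arms of the same hairpin and were counted apart.

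The other marker lists were counted in the same way. Over all expressed miRNAs, 3.56% were called higher in mutants at E17 and 10.3% at P4, and 12.1% were called lower with age in controls and 7.47% in mutants. Of 3 erythroid markers, miR-486 was called higher in mutants at E17 and miR-451 at P4. In each genotype 2 were called lower with age. The share of these markers ran from 1.74% to 5.44% in controls and from 5.38% to 12.2% in mutants at E17, and from 0.167% to 1.13% and from 0.542% to 1.95% at P4. Of 3 expressed leukocyte markers, miR-142-3p was called higher in mutants at E17 and miR-223 at P4. The shares of this list were 0.223% to 0.293% and 0.353% to 0.421% at E17 and 0.173% to 0.222% and 0.430% to 0.725% at P4, controls first. Of 2 endothelial markers, 1 was called higher in P4 mutants, with 0.908% to 1.55% in controls and 1.55% to 1.81% in mutants at that age. Of 4 skeletal muscle markers, 1 was called lower with age in controls, with 0.201% to 0.372% and 0.236% to 1.52% in the P4 genotypes. None of 4 neuron markers was called, with 0.0866% to 0.114% in P4 controls and 0.169% to 0.218% in P4 mutants, nor was the 1 hepatocyte marker, with 0% to 0.629% and 0.0438% to 0.119%. The part of any of these lists in the signals of miR-140 and miR-455 was not tested.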

How the data were processed

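Sciatic nerve RNA of 16 mice was hybridized to 1-colour Agilent mouse miRNA arrays, 1 array per mouse, and groups follow the labels. The authors deposited, per array, Agilent Feature Extraction 10.5.1.1 output holding spot intensities as scanned and background-subtracted (array design 021828), not normalized between arrays, and a table of quantile-normalized intensities, used as an alternative. Detection flags came from the same files.

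Here the log2 of the deposited median spot intensities was quantile normalized over the 13000 spots that are not controls and averaged per probe, without outlier spots. miRNAs were kept when detected on a share of 0.5 or more of any group's arrays (681 probes, 281 miRNAs). Group means were fitted on all 16 arrays with limma 3.58.1 in R 4.3.3, and p-values were adjusted by Benjamini-Hochberg over the 681 probes. Tested on simulated data with 200 of the 681 probes changed by 1 on the log2 scale, the fit recovered 100% at E17 and 99% at P4.

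The members and lists were chosen with earlier results of these data known. Named are all members, the 5 nearest profiles of miR-140, miR-140* and miR-455, from each list described at most 3 called miRNAs in each direction, and the arm pairs with the largest and smallest difference; pairs with both arms called were named after their values were seen. Lists of erythroid, skeletal muscle, leukocyte, endothelial, neuron and hepatocyte miRNAs were also counted. The number of arrays, 4 per group, limits the precision. Alternatives were other signals, scalings, filters, limits and tests, a replicate block and leaving out arrays.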

Additional observations from a re-analysis of the deposited data

Results flagged for a closer look

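In the quantile-normalized signal, the change of miR-140 with age was opposite in the 2 genotypes on every array. Its brighter probe differed by 0.73 in controls, where each P4 array lay above the E17 mean, and by -0.26 in mutants, where each lay below it. Its dimmer probe (A_54_P1075) differed by 0.64 in controls and by -0.18 in mutants. Without normalization the brighter probe differed by -0.02 in mutants, and by gene signal the ratio with age in mutants was 0.984, with replicate 2 of the P4 mutants at 74.8 units above the E17 mutant mean of 64.6. The genotype difference of miR-140* on its brighter probe was 0.11 at E17 and -0.64 at P4, with every mutant array on that side of the control mean at its age. These differences between the genotypes and between the ages were not tested, since they contain the comparisons by which the miRNAs drew attention.

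In 28 sets of 4 arrays of a probe, 3 held an array apart from the others by a gap above Dixon's critical share of the set's range, where chance gives about 1 in 20. The dimmer probe of miR-140* had its lowest P4 mutant value in replicate 3, at 6.20. The dimmer probe of miR-455 had its highest P4 mutant value in replicate 2, at 6.17. The brighter probe of miR-455* had its highest P4 control value in replicate 4, at 6.30, the only array on which it was well above background.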

How the results depend on the processing

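The number of miRNAs called among the 4 was 0 at E17, 1 with age in mutants, 2 between the P4 genotypes and 3 with age in controls. With 75th percentile scaling of the processed signal it was 1 at E17 (miR-455*, not well above background there), 3 with age in mutants and 4 between the P4 genotypes. With background-subtracted signal it was 2 with age in mutants and 4 between the P4 genotypes, with scaling to the positive-control probes 4 with age in mutants, and with normexp 1 between the P4 genotypes. Of all 281 expressed miRNAs, 263 were called lower with age in mutants under positive-control scaling. There, 39 were called higher and 60 lower with 75th percentile scaling, and 41 and 46 with background-subtracted signal. Between the P4 genotypes, 101 were called higher and 67 lower with 75th percentile scaling, 71 and 76 with background-subtracted signal, and 19 and 22 with normexp. Nothing is read from the member counts. Without a limit on the log2 difference, the number among the 4 was 2 with age in mutants and 4 between the P4 genotypes. Of all 281, 69 were then called higher and 50 lower with age in mutants, and 83 and 85 between the P4 genotypes. With a limit of 1 it was 0 of the 4 between the P4 genotypes and 0 with age in controls. Of all 281, 6 were then called higher and 8 lower, and 4 and 9. Leaving out 1 array gave member counts of 0 to 0 at E17, 1 to 1 with age in mutants, 2 to 3 between the P4 genotypes and 3 to 3 with age in controls. Leaving out replicates 3 and 4 of the E17 mutants together, chosen after their local background was seen, left the counts at 0, 1, 2 and 3. The other alternatives kept these counts within 1.5 times. Without normalization, the age difference in mutants was 0.12 for the brighter and 0.0058 for the dimmer probe of miR-140*, and that in controls was 0.37 for miR-455. With positive-control scaling the dimmer probe of miR-140 (A_54_P1075) stood at -0.057 with age in controls. The dimmer probe of miR-140* ranged from -0.0053 to 0.040 at E17 and from -0.026 to 0.0054 with age in mutants when 1 array was left out. The cause was not tested.

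The replicate number as a block kept the counts at 0, 1, 2 and 3. The methods speak of pairs of littermates, and the labels do not say that a number marks a pair. Same-numbered arrays correlated between -0.519 and 0.0901 at E17 and between -0.281 and 0.459 at P4, where 3 of 4 pairs lay over 0.1. Not every pair did, so the numbers were not taken as pairs, and whether they mark litters is not known here. Over all 281 expressed miRNAs, 29 were called higher and 30 lower between the P4 genotypes, 1 and 89 without normalization, 3 and 42 with positive-control scaling and 101 and 67 with 75th percentile scaling. With age in controls, 23 were called higher and 34 lower, 161 and 4 without normalization, 12 and 223 with positive-control scaling and 65 and 89 with 75th percentile scaling. Signal close to background limits what can be said of miR-455* and of the dimmer probes of miR-140* and miR-455.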
